A study of Ricinus communis with 12 samples.

Results

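Castor bean (Ricinus communis) keeps its endosperm to seed maturity. In many other dicot seeds this tissue is used up while the embryo grows, but in castor it remains a living storage tissue that surrounds a thin embryo and holds most of the oil, storage protein and the toxin ricin. Mature seeds contain mRNA left from seed filling and maturation, and sequencing of mature seeds reads this stored pool.

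The 135 members described here are coding transcripts selected on measured levels, whose reads were concentrated in the endosperm. A coding transcript was a member if its mean normalized count in endosperm libraries 1, 2, 3, 4 and 6 was at least 200 and at least 8 times its mean in the same-numbered embryo libraries plus 1. Of 27902 coding transcripts among 29707 transcripts in all, 135 met this rule, which is 0.484% of the coding transcripts. The normalized count is the number of reads assigned to a transcript divided by the size factor of its library. Because the rule used the measured levels, differences between endosperm and embryo in these 10 libraries describe how the members were chosen and carry no test. Library 5 of each tissue was outside the rule.

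All 12 libraries came from mature seeds of the cultivar Baker 296 grown in a greenhouse, with 6 libraries of endosperm and 6 of embryo. The labels do not say whether the libraries came from separate seeds or plants, so the spread between them may be partly technical. The endosperm libraries of the rule held 6920870 to 8871518 reads, and endosperm library 5 held 2675474. The embryo libraries held 10415612 to 12968343 reads.

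Endosperm library 5, and less so library 4, stood apart from the other 4 endosperm libraries. Across all transcripts, on log2(normalized count + 1), endosperm library 5 had a median Pearson correlation of 0.854 with the other endosperm libraries and 0.863 with the embryo libraries. For endosperm library 4 these medians were 0.902 and 0.891, and for endosperm libraries 1, 2 and 3 they were 0.906 to 0.915 and 0.862 to 0.867. Endosperm library 6 had 0.910 and 0.879. Its median level of the members, given below, was lower than that of library 4. The 77 coding transcripts that met the mirrored rule for embryo took 0.400% of the reads of endosperm library 5 and 0.0954% of those of endosperm library 4. They took 0.0339% to 0.0435% in the other 4 endosperm libraries and 0.724% to 0.938% in the embryo libraries. These 77 were chosen for low values in the 5 endosperm libraries of the rule and not in library 5. A higher share in endosperm library 5 is therefore partly built in. Endosperm library 4 is 1 of the 5 that chose the members. Means without it are given for several members that it raised, and values of single libraries show where it lowered others.

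The reference annotation gave gene identifiers for 112 of the 135 members, 83.0%, which belonged to 108 genes, and 81.9% of the coding transcripts with an endosperm mean of at least 200 that were not members also had one. None of the 108 genes had a short name or a product name, so 0 members could be tied to a known function, and no defining marker of endosperm or embryo could be checked. Matched members are called by their gene identifier, and unmatched ones by their transcript accession.

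Reads on the members were a sizeable part of the endosperm libraries and a small part of the embryo libraries. Their share was 10.3%, 13.8%, 10.2%, 6.57% and 9.14% in endosperm libraries 1, 2, 3, 4 and 6, a mean of 10.02% ± 2.62 (SD, n = 5). In embryo libraries 1, 2, 3, 4 and 6 the share was 0.693%, 0.634%, 0.486%, 0.361% and 0.437%, a mean of 0.522% ± 0.138 (SD, n = 5). Choosing the members again without endosperm library 4 gave a mean endosperm share of 10.6% over libraries 1, 2, 3 and 6. Among the 5 endosperm libraries, library 4 had the lowest share and library 2 the highest. In library 5, which the rule did not use, the members held 4.95% of the endosperm reads (132304 reads, 95% Clopper-Pearson interval 4.92% to 4.97%) and 0.466% of the embryo reads (48543 reads, interval 0.462% to 0.470%). These intervals cover counting error only. Endosperm library 5 was thus below every other endosperm library and above every embryo library. In whole-tissue RNA, fewer cells that hold a transcript and less of it per cell cannot be told apart.

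**Figure D1:**
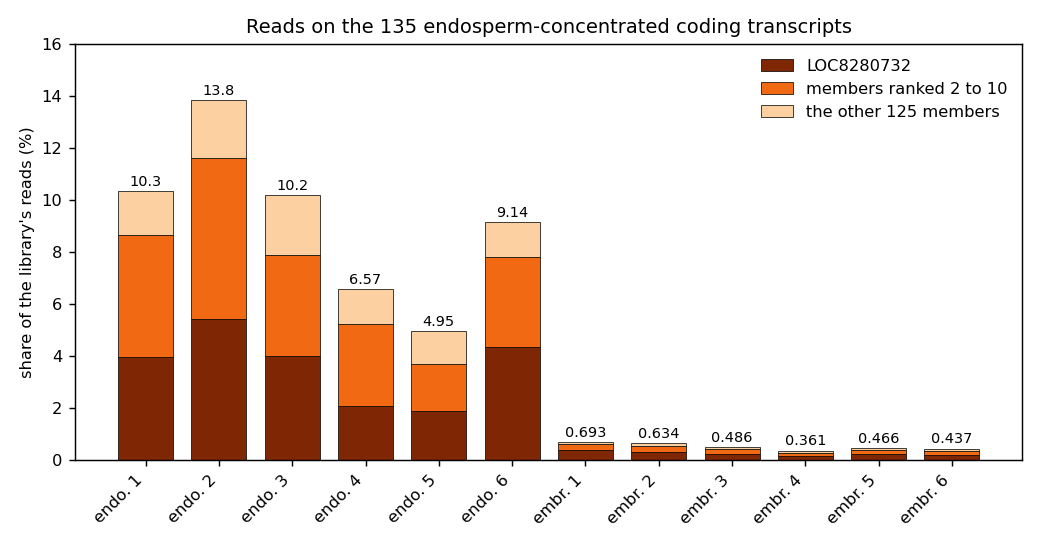
Share of each library's reads (%) on the 135 members, by library, split into LOC8280732, the members ranked 2 to 10 by endosperm mean, and the other 125 members. The 6 endosperm libraries range from 4.95% to 13.8% and the 6 embryo libraries from 0.361% to 0.693%.

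That share rested on few transcripts. Of all member reads in the 5 endosperm libraries, LOC8280732 held 39.3% and the 10 leading members held 82.1%. With each library weighted equally, 2 members made up 50% of the members' share and 19 made up 90%. Without LOC8280732, the members' share was 6.06% ± 1.57 of the endosperm reads and 0.265% ± 0.0521 of the embryo reads (SD, n = 5 per tissue). The endosperm means of the members ran from 201 to 367882 normalized counts, with a median of 561 and quartiles of 334 and 1569. There were 13 members at or above 10000, 43 at or above 1000 and 74 at or above 500. A longer transcript yields more reads, and transcript lengths were not used here, so these ranks order reads and not molecules.

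**Figure D2:**
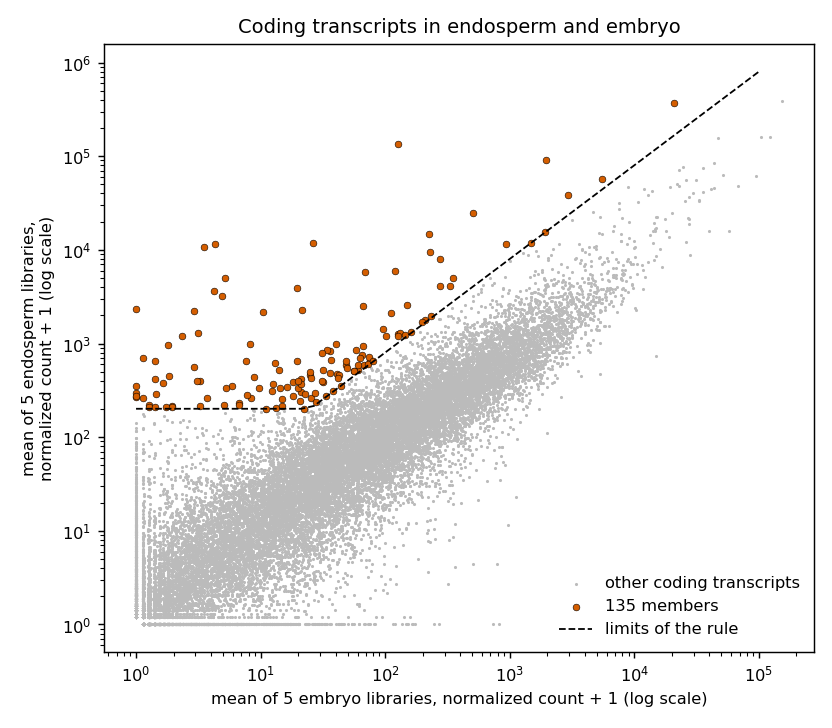
Mean normalized count + 1 of every coding transcript with reads, in 5 endosperm libraries (vertical, log scale) and 5 embryo libraries (horizontal, log scale). The 135 members lie above the dashed limits of the rule, with endosperm means of 201 to 367882.

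LOC8280732 gave the most reads of all members in the endosperm. It had 392545, 538988, 367095, 184718 and 356065 normalized counts in endosperm libraries 1, 2, 3, 4 and 6, and 32319, 22858, 19598, 13794 and 15071 in the same-numbered embryo libraries. The lowest endosperm value, in library 4, was still above the highest embryo value, in library 1. Its mean was 367882 ± 126070 in endosperm and 20728 ± 7420 in the embryo libraries (SD, n = 5 per tissue). It alone held 3.95% ± 1.2003 of the endosperm reads and 0.258% ± 0.0920 of the embryo reads (SD, n = 5 per tissue). In library 5 it stood at 145289 in endosperm and 17888 in embryo, a ratio of 8.12 with 1 added to the embryo value, as in the rule. LOC8280732 therefore also supplied the largest part of the members' trace in embryo, 49.6% of the member reads in the 5 embryo libraries.

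LOC8289755 came next in the endosperm and was far lower in the embryo. Its levels in endosperm libraries 1, 2, 3, 4 and 6 were 161720, 280216, 140206, 4293 and 90282 normalized counts, and in the same-numbered embryo libraries 142, 209, 146, 35.5 and 98.0. Endosperm library 4 was 65.3-fold below library 2, yet far above every embryo library. Its mean was 135344 in endosperm and 126 in embryo, a ratio of 1063. Its log2 ratio of 10.05 became 10.37 without endosperm library 4. In library 5 the values were 43053 in endosperm and 110 in embryo, a ratio of 388.

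LOC8267564 was also highest in endosperm library 2 and lowest, within the rule, in library 4, with 118926, 152332, 90460, 16903 and 80050 normalized counts in endosperm libraries 1, 2, 3, 4 and 6 and 834 to 3344 in all 6 embryo libraries. In endosperm library 5 it had 21055. LOC8277690 had 42114, 36107, 27204, 7730 and 11754 in endosperm libraries 1, 2, 3, 4 and 6, and 238 to 811 over the 6 embryo libraries. LOC8277690 was lowest there in endosperm library 4 too, and was lower still in library 5, at 5470.

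Other leading members went the other way in endosperm library 4. LOC8280733 had 39096, 37848, 5684, 166057 and 38678 normalized counts in endosperm libraries 1, 2, 3, 4 and 6, and 3795 to 7798 over the 6 embryo libraries. Its value in endosperm library 3 lay within the embryo range, so the tissues overlapped. Its endosperm mean was 57473, and 30326 without library 4. Its log2 ratio of 3.38 became 2.46 without library 4 and 2.82 with medians in place of means, both below the 8-fold limit, and library 5 gave a ratio of 3.70. LOC8279653 had 9376, 7164, 7673, 35287 and 13659 in endosperm libraries 1, 2, 3, 4 and 6 and 91.0 to 338 over the 6 embryo libraries, with no overlap. Its endosperm mean of 14632 became 9468 without library 4, and endosperm library 5 stood at 17859.

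XM_002529695 was the steadiest of the 10 leading members. It had 17546, 17403, 16525, 14433 and 12426 normalized counts in endosperm libraries 1, 2, 3, 4 and 6, and 14502 in library 5, so all 6 endosperm libraries lay within a narrow band. Its embryo level was also among the highest, at 1922 ± 350 (SD, n = 5). Its ratio of 8.15 placed it just inside the fold limit of the rule, and library 5 gave 10.5. LOC8280736, at 11925 ± 3272 in endosperm and 1469 ± 454 in the embryo libraries (SD, n = 5 per tissue), was also near that limit, with a ratio of 8.11, and library 5 gave 2.75.

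LOC8280451 had 2 transcripts in the table and both were members. XM_002533439 averaged 38671 ± 18887 in the endosperm and 2957 ± 1191 in the embryo (SD, n = 5 per tissue). Summed over both transcripts, the gene averaged 43660 in endosperm and 3306 in embryo. In library 5 the sum gave a ratio of 1.64, and XM_002533439 alone 1.58, the lowest ratio there of the 10 leading members. LOC8274898 stood out by its low trace in embryo. It had 13822, 16228, 18996, 6318 and 4144 normalized counts in endosperm libraries 1, 2, 3, 4 and 6 and 7.74 to 46.3 over the 6 embryo libraries, and in library 5 its ratio was 764.

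**Figure D3:**
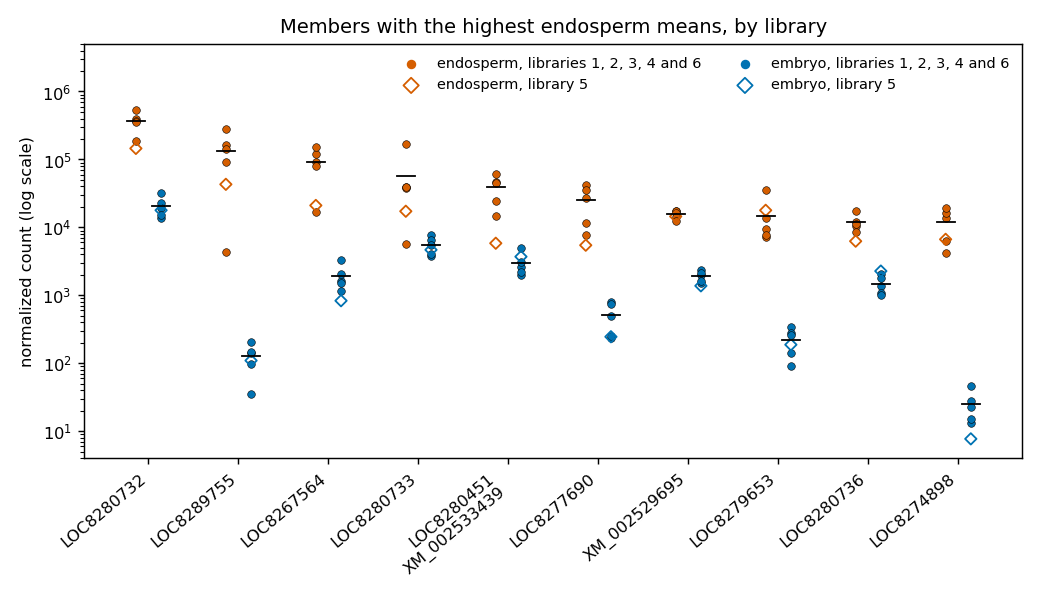
Normalized count (log scale) of the 10 members with the highest endosperm means, by library: filled points are libraries 1, 2, 3, 4 and 6 with their mean as a line, open diamonds library 5, endosperm left and embryo right. LOC8280732 ranges from 184718 to 538988 in the filled endosperm points, and LOC8280733 overlaps its embryo values through endosperm library 3.

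The trace in embryo spanned the full range from no read to the limit set by the rule. The embryo mean of a member had a median of 23.8 normalized counts and quartiles of 4.61 and 66.1. Expressed as a percentage of the endosperm mean, the median was 4.46% and the quartiles 0.654% and 8.25%. In 100 of the 135 members every one of the 5 embryo libraries had reads, while 20 members had at most 10 reads in these 5 libraries together. The reads were concentrated here too, since LOC8280732, LOC8280733, XM_002533439 of LOC8280451, LOC8267564 and XM_002529695 held 78.9% of the members' embryo reads.

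Many members exceeded the fold limit of the rule by far. The ratio of endosperm mean to embryo mean plus 1 had a median of 21.0 and quartiles of 11.9 and 109. It was at least 16 in 82 members, at least 100 in 36 and at least 500 in 11. The 36 members with a ratio of at least 100 together had 399, 559, 342, 123 and 385 reads in embryo libraries 1, 2, 3, 4 and 6, and 310 in embryo library 5. They took 2.26%, 3.94%, 2.63%, 0.517% and 1.49% of the reads in endosperm libraries 1, 2, 3, 4 and 6, and 0.00308%, 0.00478%, 0.00284%, 0.00109% and 0.00360% in the same-numbered embryo libraries. In library 5 they took 1.01% of the endosperm reads and 0.00298% of the embryo reads. Summed, they thus held a smaller share of endosperm library 4 than of library 5. Library 5 was lower, though, in the members as a whole. LOC8289755 made this difference, with 4294 of 8871518 reads in endosperm library 4 and 14978 of 2675474 in endosperm library 5. Without LOC8289755, endosperm libraries 4 and 5 were about level.

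The 5 members with the highest ratios were all lowest in endosperm library 4. LOC8273267 had 8368, 25570, 14107, 1366 and 3750 normalized counts in endosperm libraries 1, 2, 3, 4 and 6, and 0.788 to 5.87 over the 6 embryo libraries. XM_002534603 had 8984, 27937, 14054, 2286 and 4330 in the same endosperm libraries. In embryo it was read only in libraries 1, 2 and 3, with 5, 11 and 9 reads. Both, like XM_002536170, were highest in endosperm library 2, then in 3 and 1, and lowest in 4. LOC8289755 and LOC8289757 were also lowest in library 4, with library 2 or 3 the highest. The endosperm mean of XM_002534603 was 11518, and 7414 without library 2. For LOC8273267 it was 10632, and 6898 without library 2, and for LOC8289757 it was 5040, and 3234 without library 3. In library 5, LOC8273267 had 1189 reads in endosperm and 2 in embryo, XM_002534603 had 1485 and 0, XM_002536170 had 346 and 1, and LOC8289757 had 299 and 3. With so few embryo reads, the size and order of these ratios depend on the 1 added to the embryo mean. With 10 added, the log2 ratio was 9.73 for LOC8273267, beside 11.56 with 1 added, 9.76 for XM_002534603, beside 11.39, and 7.87 for XM_002536170, beside 11.19. LOC8289755 then ranked above them, at 9.96.

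Of the 135 members, 5 had no read in the 5 embryo libraries of the rule, which held 58637429 reads in all. A fold for them is a lower bound, taken as the mean share of endosperm reads over the share that 3 reads in all 5 embryo libraries make up. XM_002536170 was at least 4764-fold higher in endosperm, from 1722, 5902, 2769, 452 and 834 normalized counts in endosperm libraries 1, 2, 3, 4 and 6. Its endosperm mean of 2336 became 1444 without library 2. The bound was at least 772-fold for LOC8274754, 595-fold for XM_015724883 of LOC8277374, 591-fold for XM_015729075 of LOC8261916 and 559-fold for LOC8278518. XM_015729075 had reads in endosperm libraries 1, 2 and 3 only and 0 in libraries 4, 5 and 6, so its bound does not describe every endosperm library. The ratio of its gene, summed over transcripts, was 3.16. Embryo library 5 held 1 read of XM_002536170, 2 of LOC8274754 and 0 of the other 3. Endosperm library 5 held 346, 30, 175, 0 and 37 reads of XM_002536170, LOC8274754, XM_015724883, XM_015729075 and LOC8278518. With 1 added to the embryo value, the ratios there were 561 for XM_002536170 and 33.8 for LOC8274754. The bounds of these members thus hold for the libraries of the rule only. Without library 4, the endosperm mean of LOC8274754 fell from 355 to 154 and that of XM_015724883 from 273 to 193.

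Library 5 was the check outside the rule, with 1 library per tissue and therefore no test. In it, 98 of the 135 members, 72.6%, were at least 8 times higher in endosperm than in embryo plus 1. Among the 20368 coding transcripts with a read in either library, 5.55% were. Among all 5591 coding transcripts with an endosperm mean of at least 200, members included, 2.27% were, and among the 5456 that are not members 0.532% were. At 2-fold the count was 126 of 135 members, beside 12.4% of the 5591 and 21.9% of the 20368. Endosperm library 5 was above embryo library 5 in 131 members, beside 44.1% of the 5591, and above all 6 embryo libraries in 127 members, beside 23.8%. The median ratio of the members was 16.9 in library 5 and 21.0 in the libraries that chose them. Among the 5456 other transcripts these medians were 0.904 and 0.966.

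The levels in endosperm library 5 were low all the same. Relative to its mean in the other 5 endosperm libraries, a member stood in library 5 at a median of 0.482, with quartiles of 0.296 and 0.814. The 5456 other transcripts stood at a median of 0.842. Library 5 was within the range of the other 5 endosperm libraries in 76 members, below it in 53 and above it in 6. It was below that range in 39.3% of the members and in 36.8% of the others. The members were chosen for high values in the other 5 libraries and not in library 5, and the share of embryo-concentrated transcripts and the correlations of library 5 given above moved in the same direction. Their part in these low levels was not tested. One read in endosperm library 5 corresponds to 2.87 normalized counts. Levels below 8.62, that of 3 reads, rest on too few reads to be measured well there.

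**Figure D4:**
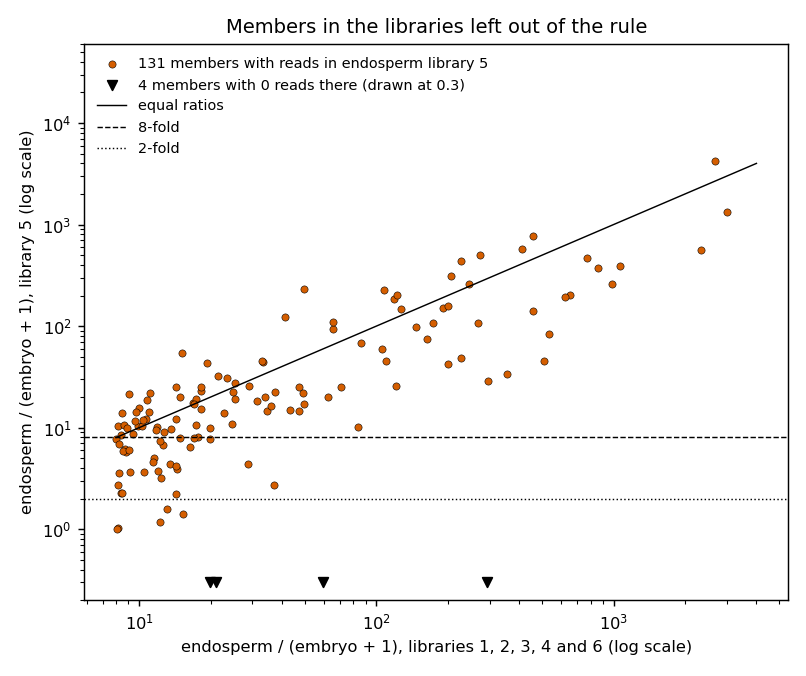
Ratio of endosperm to embryo plus 1 for each member in library 5 (vertical, log scale) against the ratio in the libraries of the rule (horizontal, log scale), with dashed and dotted lines at 8-fold and 2-fold. In library 5, 98 of 135 members are at or above 8-fold and 126 at or above 2-fold, and 4 members without reads in endosperm library 5 are drawn as triangles.

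The 5 members with the lowest ratio in library 5 included 4 without a read in endosperm library 5. XM_015717877 of LOC8262419, XM_015724952 of LOC8258733, XM_015729075 of LOC8261916 and XM_015720176 had endosperm means of 398, 350, 293 and 340 normalized counts and 0 reads in endosperm library 5, where 1 read stands for 2.87. XM_002519410 had 60.4 in endosperm library 5 and 58.8 in embryo library 5, against endosperm values of 61.98 to 562 in the libraries of the rule. Of the 4 without reads, 3 belong to genes with several transcripts, and summed over their transcripts LOC8262419, LOC8258733 and LOC8261916 stood at 2449, 1661 and 2642 in endosperm library 5.

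For 7 members, the gene did not meet the rule when its transcripts were summed. Of the 108 genes, 92 had 1 coding transcript in the table and 16 had more. In 9 of these 16 the sum also met the rule, and in 7 it did not. For LOC8273613, the member XM_015719128 averaged 11546 ± 6379 in endosperm and 940 ± 598 in the embryo libraries, while the other transcript, XM_015719132, averaged 21585 ± 6683 in endosperm and 27344 ± 3422 in the embryo libraries (SD, n = 5 per tissue). Summed, the gene averaged 33131 in endosperm and 28284 in embryo, a ratio of 1.17. In the libraries of the rule, the endosperm concentration of LOC8273613 was thus one of XM_015719128 and not of the gene. In library 5, XM_015719128 stood at 923 in endosperm and 778 in embryo, a ratio of 1.18.

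The sums of LOC8258733, LOC8262419 and LOC8275496 were lower in endosperm than in embryo, with gene ratios of 0.488, 0.627 and 0.784. Those of LOC8261916, LOC8258096 and LOC8259873 were higher in endosperm but below the fold limit of 8, at 3.16, 4.69 and 5.99. In LOC8258733, the member XM_015724952 had 653, 504, 314, 59.98 and 219 normalized counts in endosperm libraries 1, 2, 3, 4 and 6, while XM_015724951 of the same gene had 0, 12.96, 142, 628 and 476. The 2 transcripts thus ran in opposite orders over the endosperm libraries. In LOC8261916, the member XM_015729075 had 488, 482 and 493 in endosperm libraries 1, 2 and 3 and 0 in libraries 4, 5 and 6, while XM_002511851 had 834, 907 and 1748 in libraries 1, 2 and 3 and 3932, 2642 and 2280 in libraries 4, 5 and 6. The authors' counting shares reads among similar transcripts, so the levels of single transcripts of 1 gene are less certain than their sum. In library 5, 1 of these 7 members was at least 8-fold higher in endosperm, beside 97 of the other 128. The 7 members together held 0.146% of the endosperm reads.

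Variation among the endosperm libraries was wide. The coefficient of variation (CV, the SD over the mean of the 5 endosperm libraries of the rule) had a median of 0.498 over the members, with quartiles of 0.340 and 0.669. For the 5456 other coding transcripts with an endosperm mean of at least 200, the median was 0.225 and the quartiles 0.156 and 0.321. The CV of 106 of the 135 members was above that upper quartile. The gap was similar at every level of reads: the median CV was 0.493 in members and 0.235 in others for means of 200 to 500, 0.470 and 0.207 for means of 500 to 2000, and 0.549 and 0.234 for means of at least 2000. Transcripts are not replicates, and a rule based on a mean over 5 libraries also takes in transcripts that 1 library raises, so no test is attached to this gap.

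The libraries did not contribute alike. Of the 135 members, 50 were lowest in endosperm library 4 and 45 in library 6, beside 13, 14 and 13 in libraries 1, 2 and 3. Among the other transcripts, 26.9% were lowest in library 4 and 30.8% in library 6, against 37.0% and 33.3% of the members. The highest value was in library 3 for 47 members, in library 2 for 27, in library 4 for 24, in library 1 for 21 and in library 6 for 16. Library 3 was the highest for 34.8% of the members and 15.9% of the other transcripts, and library 4 for 17.8% of the members and 31.3% of the others. Relative to the mean of each member, the median level was 1.003, 1.05, 1.16, 0.822 and 0.664 in endosperm libraries 1, 2, 3, 4 and 6. For the other transcripts it stayed between 0.928 and 1.03. The range within a member was often large: in the 133 members with reads in all 5 libraries the highest value exceeded the lowest by a median of 3.75-fold, and by at least 10-fold in 24. This range was not computed for the other transcripts.

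**Figure D5:**
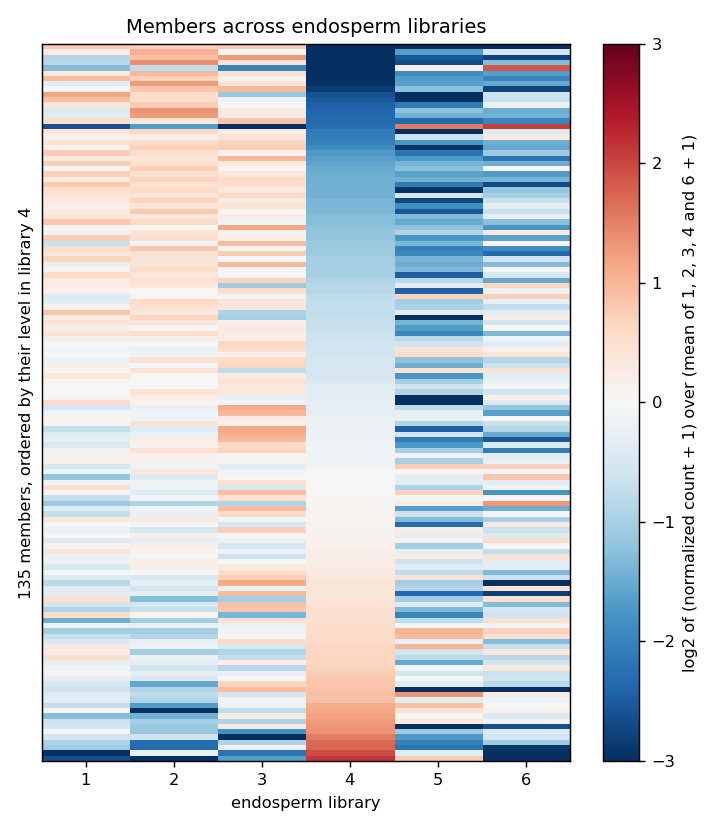
Level of each member (rows, ordered by their level in library 4) in the 6 endosperm libraries (columns) as the log2 of normalized count + 1 over the mean of libraries 1, 2, 3, 4 and 6 plus 1, with colours ending at -3 and 3. Low values gather in libraries 4, 5 and 6, while the bottom rows are high in library 4.

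At the variable end, single libraries stood far above the rest. LOC8265450 had the highest CV, 1.92, with 1146 normalized counts in endosperm library 4 and 41.0, 7.20, 82.4 and 19.0 in libraries 1, 2, 3 and 6. Its endosperm mean of 259 became 37.4 without library 4. In endosperm library 5 it stood at 440, while all 6 embryo libraries together held 1 read. XM_002509491 had 4123 in endosperm library 6 and 160, 305, 96.3 and 200 in libraries 1, 2, 3 and 4, so its mean of 977 became 190 without library 6. Library 5, outside the rule, had 2897. LOC8282968 was also highest in endosperm library 6, at 1235 beside 33.0 to 200 in the other 4, and its mean of 338 became 113 without it. XM_015716952 and XM_002513285 were highest in endosperm library 4, at 832 and 2119. Their means of 212 and 643 became 57.0 and 274 without it, so XM_002513285 stayed above the minimum of 200 and the other 4 members with the highest CVs did not. In all, 19 of the 135 members had a mean below 200 once their highest library was left out.

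At the steady end, XM_002533874 had a CV of 0.114, with 1333, 1290, 1269, 1110 and 1010 normalized counts in endosperm libraries 1, 2, 3, 4 and 6, and 99.8 ± 25.7 in embryo (SD, n = 5). In endosperm library 5 it stood at 604. LOC8267311, XM_002529695, LOC8270648 and LOC8277515 had CVs of 0.131, 0.140, 0.144 and 0.153. In endosperm library 5 they stood at 0.859, 0.926, 1.05 and 0.846 of their means, and their ratios there were 18.9, 10.5, 25.6 and 19.9. These 4 were thus about as high in the library outside the rule as in the others. A CV of at most 0.25 was found in 18 members, and one above 1 in 9. The median CV of the other transcripts, 0.225, was itself below 0.25.

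Some members sat side by side in the genome. In the gene order of the castor assembly ASM1957865v1, 17 of the 108 member genes, 15.7%, were direct neighbours of another member gene among the protein-coding genes. Of 4208 other genes with a transcript at an endosperm mean of at least 200, 40, or 0.951%, were direct neighbours of a member gene. The 17 genes formed 8 groups, 1 of 3 genes and 7 of 2. The assembly is not stated to be the one behind the transcripts, so only this order is used, and whether neighbours resemble each other in sequence was not analysed here.

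The 2 members with the most endosperm reads both lay in such groups. LOC8289755, LOC8289756 and LOC8289757 followed each other and had ratios of 1063, 83.5 and 981. Their endosperm means, 135344, 5764 and 5040, differed widely. The next gene, LOC8289758, was listed at 0 in both tissues, and LOC8289759 beyond it had a ratio of 0.578. LOC8289757 had 2728, 9302, 12265, 169 and 736 normalized counts in endosperm libraries 1, 2, 3, 4 and 6, and LOC8289756 had 3630, 5336, 10984, 2658 and 6214. Among the libraries of the rule, all 3 genes were lowest in endosperm library 4.

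LOC8280732 and LOC8280733 were neighbours as well, and 2 further members lay close by. LOC8280736 was 3 genes beyond LOC8280733, with LOC8280734 and LOC8280735 between them, and LOC8280725 was separated from LOC8280732 by 1 gene that had no transcript in the table. The genes between were not members: LOC8280734 averaged 15162 in endosperm and 5246 in embryo, a ratio of 2.89, and LOC8280735 averaged 7356 and 5679, a ratio of 1.29. LOC8280725 averaged 4099 in endosperm and 331 in embryo, a ratio of 12.4, and library 5 gave 3.20.

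Between LOC8280732 and LOC8280733 the division of reads was steady in embryo and uneven in endosperm. LOC8280733 took 9.06%, 6.56%, 1.52%, 47.3% and 9.80% of the pair's reads in endosperm libraries 1, 2, 3, 4 and 6, and 10.6% in library 5. In the 6 embryo libraries it took between 19.4% and 22.0%. The sum of both was 431641, 576836, 372779, 350775 and 394742 normalized counts in endosperm libraries 1, 2, 3, 4 and 6, and 162581 in library 5. Over the 5 libraries of the rule its CV was 0.211, beside 0.343 for LOC8280732 and 1.08 for LOC8280733. Endosperm library 4, the lowest for LOC8280732 and the highest for LOC8280733, was thus closer to the other libraries of the rule in the sum. Whether reads were shared between these genes in counting was not tested.

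In most of the other groups, but not in all, the neighbours shared their highest library. LOC8265449 and LOC8265450 were both highest in endosperm library 4, at 4968 and 1146 normalized counts, among the libraries of the rule. LOC8274897 and LOC8274898 were both highest in library 3, at 1447 and 18996, as were LOC8266938 and LOC8286897, at 550 and 4140. LOC8270267 and LOC8270508 were both highest in library 6, at 469 and 286. LOC8274753 and LOC8274754, both almost without embryo reads, did not share theirs: LOC8274754 was highest in library 4 at 1159, with at most 190 in the other 4, while LOC8274753 was highest in library 6 at 390, with 373 in library 4. Nor did LOC8273613 and LOC107261240, since LOC107261240 had 9746 in endosperm library 6 and 9466 in library 5, against 5093 and 923 for XM_015719128 of LOC8273613.

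Near the limits of the rule the choice was narrow. The members with the lowest endosperm means were LOC8270517, LOC8279973 and a transcript of LOC8273386 at 201, 201 and 205 normalized counts, and just below the limit stood LOC107261792, XM_002516974 and XM_015720592 at 197, 194 and 191. The members with the lowest ratios were XM_002523042 of LOC8259873, XM_002519410 and LOC8280736 at 8.02, 8.07 and 8.11, and just outside stood LOC8288433, LOC8265557 and LOC8285803 at 7.65, 7.56 and 7.55. LOC8265557, with 7543 in endosperm and 997 in embryo, was the most read of these 6 transcripts outside the rule.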

How the data were processed

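Members and lists were chosen with earlier results of these data known. Per the labels' protocols, hot borate extraction gave the RNA, and libraries were read from both ends on a NextSeq. Trimmomatic, Salmon and DESeq2 are named in the submitters' processing notes, whereas versions, settings, transcript set and build were not given in the sources used here. The deposited estimated counts are whole numbers per transcript for 10 libraries. The second deposited table, a normalized signal for 12 libraries, holds those counts divided by 1 size factor per library: in each of the 10 shared libraries the tables had a constant ratio (relative deviation at most 7.05e-10). The reads of library 5, in endosperm and embryo, were recovered from the smallest step, of which 100% of values were whole multiples within 0.01 reads.

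The rule was applied to the normalized values, and shares are percentages of a library's reads. The tissues were not compared by a test, nor by a count test on the recovered reads, because the rule used the contrast of the tissues and library 5 has 1 library per tissue. The rule was tested on simulated data. No libraries of a tissue agreed within sampling noise (lowest chi-square per degree of freedom 18.9). Transcripts were matched to genes by accession, ignoring versions. Named members are the 10 highest endosperm means, the 5 highest ratios, highest and lowest CVs, highest embryo means and lowest library 5 ratios, and 3 on each side of each limit. Other transcripts of genes, neighbours and the members without embryo reads were named after their values were seen. Lists by product name, promoter motifs and protein features were not analysed here. Alternatives were other scalings, including TMM of edgeR 4.0.16, other limits, medians, sums per gene, and leaving out each library. Tools were Python 3.11.15 with scipy 1.17.1, pandas 2.3.3, matplotlib 3.10.9 and numpy 2.4.6, and R 4.3.3.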

Additional observations from a re-analysis of the deposited data

Results flagged for a closer look

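In 13 of 74 sets of 6 libraries, 1 library lay beyond Dixon's limit for the gap to its nearest neighbour, where chance flags about 1 in 20 sets. The count cannot be set against chance, since the sets share the same 12 libraries, several members were named for a high CV or a low library 5 ratio, and sets with 1 value above 0 pass the limit by construction.

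In the endosperm, library 5 had 2675474 reads, the fewest, and 0.400% of its reads were on embryo-concentrated transcripts, beside a median of 0.0393% in the other 5. Those transcripts were chosen for low values in the other 5, so part of that gap is built in. XM_015720176 had 0 normalized counts in endosperm library 5 beside a median of 362. Endosperm library 4 was far above the others for LOC8280733 with 166057 normalized counts beside a median of 37848, for XM_002513285 with 2119 beside 141, and for XM_015716952 with 832 beside 44.9. Endosperm library 6 was far above them for LOC8282968, at 1235 beside 136.

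In the embryo, the values that stood apart were small in absolute terms for 4 members. LOC8273267 had 5.87 normalized counts in embryo library 2 beside a median of 1.55, XM_002536170 had 0.774 in embryo library 5 and 0 elsewhere, LOC8265450 had 0.700 in embryo library 6 and 0 elsewhere, and XM_015724952 of LOC8258733 had 24.5 in embryo library 3 and 0 elsewhere. LOC8277515 had 425 in embryo library 4 beside a median of 225, and LOC8270517 had 43.4 in embryo library 6 beside 13.97.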

How the results depend on the processing

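No paired analysis was possible because no result came from a test between the tissues, the contrast having chosen the members. Choosing the members again under other settings left 39 of 52 values within 1.5 times (number of members), 1 SD between libraries (shares and median CV, the latter over values with 1 library left out) or the binomial interval (share at least 8-fold in library 5). That interval counts members as independent, which transcripts of 1 library are not, so it serves only as a tolerance. The number of members was 212 with a minimum mean of 100, 85 with 400, 326 with a fold of 4 and 82 with a fold of 16. With a fold of 4, the members' share was 14.1% of endosperm and 1.44% of embryo reads, the median CV 0.385, and 35.3% were at least 8-fold in library 5. With a fold of 16 the embryo share was 0.314%, the median CV 0.565 and the library 5 share 89.0%. Scaling by library totals gave 109 members, all among the 135, of which 82.6% were at least 8-fold in library 5. Including library 5 in the rule gave a median CV of 0.606. Medians in the rule gave 136 members, 118 of them shared.

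Leaving out 1 library at a time gave 126 to 137 members, 121 to 132 of them shared, 8.86% to 10.6% of endosperm reads, 0.451% to 0.548% of embryo reads, 67.9% to 74.0% at least 8-fold in library 5, and a median CV of 0.426 (without endosperm library 4) to 0.542. Sums per gene gave 103 genes. Without the 7 transcripts whose gene sums did not meet the rule, an alternative added after seeing the data, 128 members held 9.87% of endosperm reads. For the 32 named members, 452 of 480 ratios stayed within the spread of the endosperm libraries and 0 turned direction. These settings reuse the libraries in which the rule required a ratio of at least 8, so a turn was hardly possible. Library 5 alone was not among the settings. Depth limits embryo traces near 1 read and endosperm library 5 below 3 reads.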
